A study of Mus musculus with 23 samples.

Results

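The respiratory chain of mouse cardiac macrophages is encoded by 2 genomes, and the genes described here are its protein-coding members from both. They were chosen by name: gene symbols beginning with Ndufa, Ndufb, Ndufc, Ndufs or Ndufv (complex I), Uqcr (complex III), Cox4i, Cox5, Cox6, Cox7 or Cox8 (complex IV), Atp5 (ATP synthase), the mitochondrially encoded mt-Nd, mt-Co, mt-Cytb and mt-Atp genes, and Sdha to Sdhd (complex II). The rule used no measured value and found 107 of the 54532 genes in the count table, 94 in the nucleus and 13 on the mitochondrial genome. A filter on low counts kept 104 members, 91 nuclear and all 13 mt- genes. Cox7b2, Cox8c and a second entry named Atp5o had no count in any library. The study measured poly(A) RNA of Ly6G- CD11b+ cells sorted magnetically from C57BL/6 hearts, in 23 libraries. MyS7KO mice carried loxP-flanked Smad7 alleles (Smad7 fl/fl) together with LyzM-Cre, a Cre recombinase driven by the lysozyme M locus in myeloid cells, and S7fl/fl mice carried the loxP-flanked alleles alone. Both genotypes were sampled in control hearts (baseline, 3 MyS7KO and 3 S7fl/fl libraries), 3 days after coronary occlusion (5 and 5) and 7 days after it (4 and 3). The labels give no age and do not say whether a library is a single heart or a pool, so p-values measure the spread between these libraries only.

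Electrons from NADH enter the chain at complex I and those from succinate at complex II, pass through complex III and reach oxygen at complex IV, and the proton gradient that results drives ATP synthase. Mitochondrial DNA encodes core subunits of complexes I, III and IV and of ATP synthase, while every complex II subunit and all other subunits are made from nuclear genes and imported. Macrophages are known to shift between oxidative phosphorylation and glycolysis when they are activated. Among the nuclear members the Ndufaf genes encode assembly factors of complex I rather than subunits, Ndufa4 and its paralog Ndufa4l2 belong with complex IV despite their names, and Cox7a2l encodes a factor that joins complexes III and IV into supercomplexes.

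Library totals ranged over 15.5 to 23.9 M counts. The macrophage markers, which include Adgre1, Csf1r and C1qa, summed to 10480 to 18740 CPM (counts scaled to a common library size) per library, and all 10 were detected. Smad7, the targeted gene, read lower in every MyS7KO library than in every S7fl/fl library of the same time (19.7 to 48.7 against 53.1 to 61.2 CPM at baseline), although its difference passed the test at no time (edgeR adjusted p = 0.999, 0.11 and 0.0702 at baseline, day 3 and day 7). Lyz2, at whose locus the Cre gene sits, read 2445 to 3349 CPM in MyS7KO and 5085 to 5747 CPM in S7fl/fl cells at baseline. By Xist and the Y-linked genes, all 4 MyS7KO libraries of day 7 were female and all 3 S7fl/fl libraries male, so at day 7 an effect of sex and one of Smad7 cannot be told apart. The baseline and day 3 groups each held both sexes. Comparisons of day 7 with earlier times within a genotype, and interactions with day 7, thus also differ in sex. In 3 day 3 libraries the signal of the other sex was over 2% of its median in libraries of that sex. These mixed libraries were MyS7KO replicates 2 and 3 and S7fl/fl replicate 4.

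Part of the mitochondrial genome has a near-identical copy in the nucleus, which bears on how the mt- members were counted. On GRCm38 a run of unprocessed pseudogenes on the minus strand of chromosome 1 matched the full length, within 6 bases, of mt-Co2, mt-Atp6, mt-Co3, mt-Nd3 and mt-Nd4l at 100% identity, 876 bases of mt-Nd4 at 100%, and 483 bases of mt-Co1 at 99.8%. Shown first is the start of mt-Nd4l (chrMT:9877-9966, plus strand) with the corresponding stretch of its copy Gm10222 (chr1:24612611-24612700, minus strand), where no base differs, and then the stretch of mt-Co1 (chrMT:6390-6432, plus strand) and of Gm29216 (chr1:24616146-24616188, minus strand) that holds their 1 difference, in capitals. The sequences are GENCODE M21 transcripts.
mt-Nd4l: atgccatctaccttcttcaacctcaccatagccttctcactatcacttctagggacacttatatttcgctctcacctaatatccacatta
Gm10222: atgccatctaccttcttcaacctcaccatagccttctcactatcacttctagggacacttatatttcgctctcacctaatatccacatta
mt-Co1: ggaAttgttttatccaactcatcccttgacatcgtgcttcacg
Gm29216: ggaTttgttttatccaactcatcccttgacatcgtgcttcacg

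A read that lies wholly in such a stretch cannot be assigned to either place from its letters. In the deposited counts, mt-Co2 had 235 to 1310 counts per library and its copy Gm28661 had 283 to 1626, while the neighbouring mt-Co1 had 58847 to 326742. Counts were similarly low for mt-Atp6 (143 to 1201), mt-Co3 (188 to 1875), mt-Nd3 (17 to 411) and mt-Nd4l (18 to 244). The gene mt-Atp8 lies between mt-Co2 and mt-Atp6, overlaps the start of mt-Atp6 and had 8 to 50 counts. No annotated pseudogene transcript aligned to it, but its overlapping end lies in the stretch of mt-Atp6 that matched its copy at 100%. Counts of these 6 genes are uncertain, and so are their levels beside those of the other mt- members. The same holds in part for mt-Nd4, with 876 of its 1378 bases copied, and for mt-Co1, with 483 of 1545. The part of the copies in the low counts was not tested. In the plot of mt- members per length the 6 genes form a trough of 2.12 to 134 FPKM (fragments scaled to gene length and a size set per library). The genes outside it read 332 to 8829 FPKM.

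**Figure D1:**
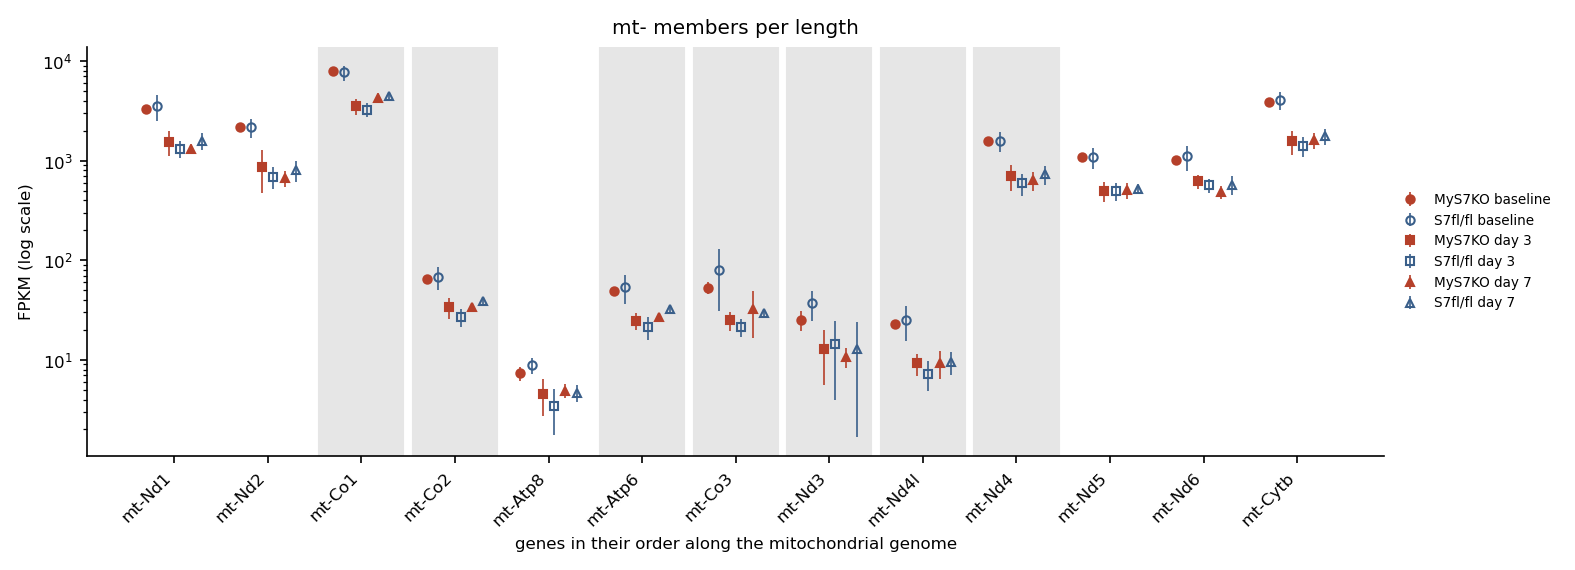
Mean FPKM (log scale) of the 13 mt- members in their order along the mitochondrial genome, with bars for SD; filled red symbols are MyS7KO and open blue symbols S7fl/fl, circles baseline, squares day 3 and triangles day 7, and grey bands mark genes with an aligned copy on chromosome 1. For every gene the baseline means stand above the day 3 and day 7 means, and mt-Co1 is highest at 3258 to 7970 FPKM.

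Per length, mt-Co1, the catalytic subunit of complex IV, was the most abundant member, with a mean over libraries of 7970, 3519 and 4267 FPKM in MyS7KO cells at baseline, day 3 and day 7, against 7688, 3258 and 4457 FPKM in S7fl/fl cells. It was followed by mt-Cytb (complex III), mt-Nd1, mt-Nd2 and mt-Nd4 (complex I). The levels of mt-Co1 and mt-Nd4 carry the uncertainty of their partial copies. The most abundant nuclear members by FPKM were Cox6a1, Cox8a and Cox4i1, all of complex IV, whose group means ran from 118 to 343 FPKM. Even at day 3, mt-Nd5, the lowest mt- member outside the trough, averaged 498.5 FPKM in MyS7KO and 491.3 FPKM in S7fl/fl cells, above the highest nuclear group mean. These orders rest on the deposited gene lengths, 702 bases for Cox6a1 and 4237 for Atp5b. By counts Atp5b led the nuclear members, with up to 17107 per library, against up to 5705 for Cox6a1. Whether the lengths match the transcripts present was not tested.

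After infarction the nuclear and the mitochondrial members moved in opposite directions in both genotypes. The nuclear members summed to 7808, 8234, 8757, 7617 and 8509 CPM in the 5 MyS7KO day 3 libraries, against 4042, 3745 and 4447 CPM in the 3 MyS7KO baseline libraries. In S7fl/fl cells they summed to 7090, 7458, 7490, 7535 and 8717 CPM at day 3, against 3913, 5359 and 4662 CPM at baseline. The sums did not overlap, and the day 3 means were 2.01 and 1.65 times the baseline means in MyS7KO and S7fl/fl cells.

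The 13 mt- members together went the other way. They summed to 11643, 9129, 16332, 10612 and 11614 CPM in MyS7KO day 3 libraries, against 26799, 28649 and 25685 CPM at baseline. S7fl/fl libraries held 10108, 12495, 11638, 7690 and 12275 CPM at day 3, against 20916, 28638 and 32611 CPM at baseline. Again no day 3 library reached the lowest baseline library, and the means were 2.28-fold and 2.53-fold lower at day 3 in MyS7KO and S7fl/fl cells.

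The ratio of the mt- sum to the nuclear sum separated baseline from both later times. It was 5.78 to 7.65 in MyS7KO libraries at baseline, 1.11 to 1.87 at day 3 and 1.71 to 2.85 at day 7. In S7fl/fl libraries it was 5.34 to 7.00, 1.02 to 1.68 and 1.78 to 2.51. On the log2 scale the day 3 mean ratio was 2.22 below baseline in MyS7KO cells (-2.22) and 2.07 below it in S7fl/fl cells (-2.07), and at day 7 the differences from baseline were -1.54 and -1.49. Without the mt- genes that have a copy on chromosome 1 or lie between such genes, the day 3 differences were -2.25 and -2.15. These sums are descriptions over chosen members and carry no test.

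**Figure D2:**
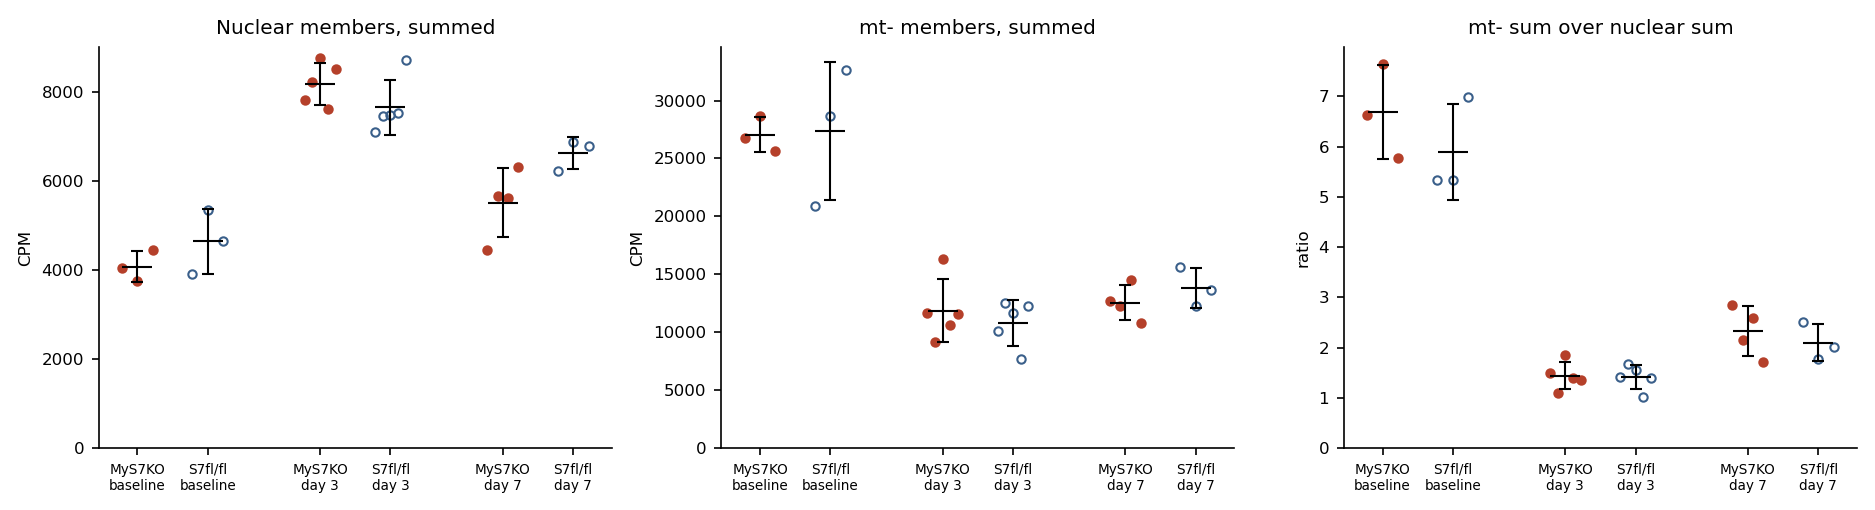
Summed CPM of the nuclear members (left), of the mt- members (middle) and the ratio of the mt- sum to the nuclear sum (right), per library, by time with MyS7KO (filled red) left of S7fl/fl (open blue); horizontal bars are means and error bars SD. Nuclear sums peak at day 3 (7090 to 8757 CPM) while mt- sums are highest at baseline (20916 to 32611 CPM).

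At day 3 against baseline, 80 of 91 nuclear members (87.9%) rose and 2 fell in MyS7KO cells, where 30.7% of all 16545 genes tested rose and 35.2% fell, 65.9% in either direction (edgeR quasi-likelihood test, Benjamini-Hochberg adjusted p under 0.05 over all genes). In S7fl/fl cells 74 rose and 5 fell, where 29.9% of all genes rose and 34.1% fell, 64.0% in either direction. None of the 13 mt- members rose in either genotype, while 11 fell in MyS7KO and 12 in S7fl/fl cells. The median log2 fold change of the nuclear members was 1.06 in MyS7KO and 0.75 in S7fl/fl cells, that of the mt- members -1.11 and -1.37, and that of all genes tested -0.10 and -0.06.

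Every nuclear complex had most of its tested members among the rises. All 16 nuclear subunits of ATP synthase rose in both genotypes, as did all 4 genes of complex II. Complex III had 8 of 8 members higher in MyS7KO and 7 of 8 in S7fl/fl cells, and complex I 35 of 36 and 32 of 36. Complex IV was mixed, with 12 of 17 higher and 2 lower in MyS7KO cells, and 11 higher and 4 lower in S7fl/fl cells. Of the 8 assembly factors of complex I, 5 and 4 rose.

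Of the nuclear members, Cox5a, a subunit of complex IV, had the largest log2 rise at day 3 in both genotypes. It read 67.8, 71.3, 82.9, 65.4 and 70.3 CPM in MyS7KO libraries at day 3, against 18.1, 19.8 and 23.4 CPM at baseline. S7fl/fl libraries held 61.6, 55.6, 62.2, 61.6 and 77.5 CPM at day 3, against 19.3, 30.8 and 22.4 CPM at baseline. The groups did not overlap, and Cox5a rose 3.5-fold in MyS7KO cells (log2 1.81 ± 0.15 standard error, edgeR adjusted p = 6.8e-10) and 2.64-fold in S7fl/fl cells (log2 1.40 ± 0.15, edgeR adjusted p = 2.46e-08).

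Atp5g1, 1 of several genes that encode the same mature c subunit of the ATP synthase rotor, read 96.2, 89.6, 96.9, 79.8 and 96.0 CPM at day 3 in MyS7KO cells, against 29.2, 29.1 and 32.2 CPM at baseline. It read 82.5, 82.8, 79.5, 80.5 and 94.8 CPM in S7fl/fl cells at day 3, against 29.4, 40.5 and 36.6 CPM at baseline. Every day 3 library stood above every baseline library of its genotype, with log2 fold changes of 1.60 ± 0.12 in MyS7KO and 1.24 ± 0.11 in S7fl/fl cells (edgeR adjusted p = 8.67e-11 and 3.54e-09). Its paralogs moved the same way by 1.21 and 0.72 (Atp5g2) and 1.55 and 1.02 (Atp5g3) on the log2 scale. Uqcrq, a small subunit of complex III (log2 1.69 and 1.19), and Ndufc1, an accessory subunit of complex I (log2 1.60 and 1.26), also rose in both genotypes.

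All succinate dehydrogenase genes rose at day 3, Sdha the least. Sdha, the flavoprotein subunit of complex II, averaged 214 ± 7.79 CPM at day 3 and 148 ± 11.7 CPM at baseline in MyS7KO cells (SD, n = 5 and 3), a log2 fold change of 0.53 ± 0.09, and 0.43 ± 0.08 in S7fl/fl cells. The iron-sulfur subunit gene Sdhb and the membrane anchor genes Sdhc and Sdhd gained 1.03, 1.09 and 1.03 in MyS7KO cells and 0.78, 0.78 and 0.84 in S7fl/fl cells on the same scale. All of these passed in both genotypes.

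**Figure D3:**
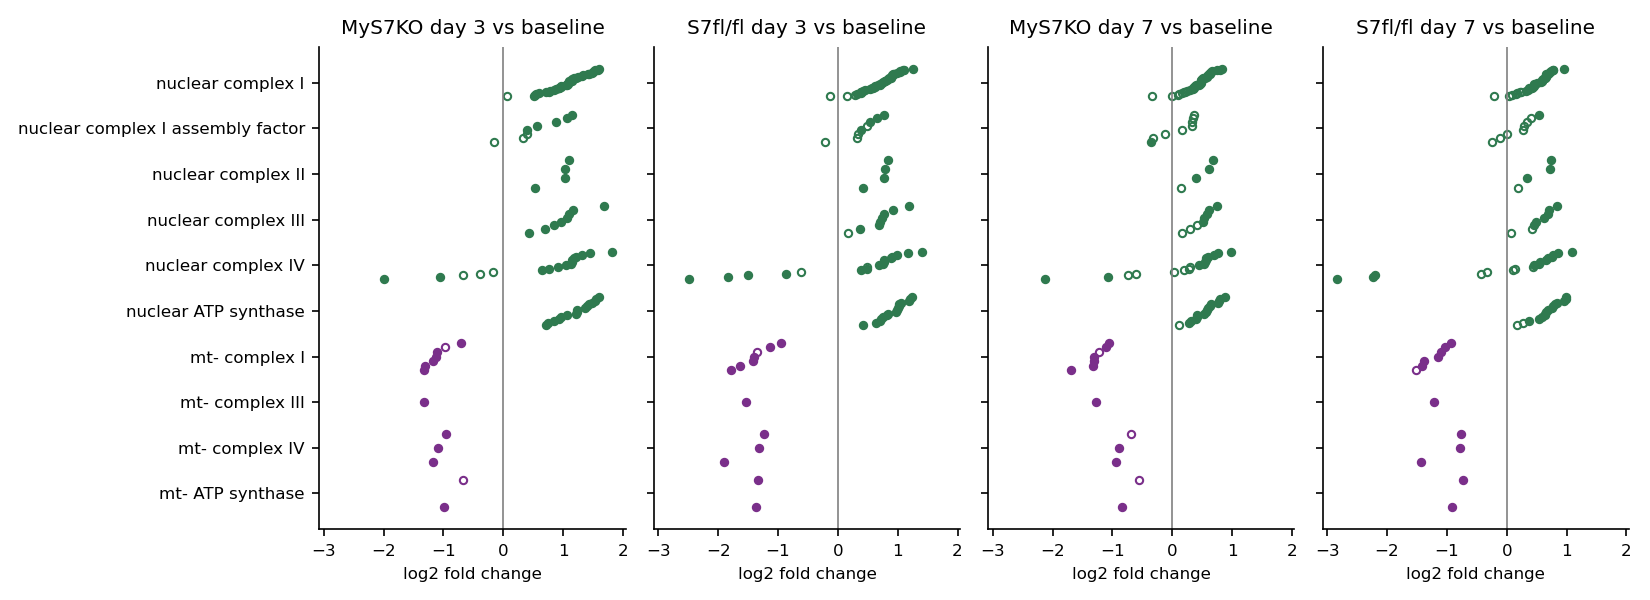
Log2 fold change of the tested members against baseline, by complex, for day 3 and day 7 in MyS7KO and S7fl/fl cells. Cox7a2l and Atp5s are not shown. Green points are nuclear, purple points mt- members, and filled points passed the edgeR test. Nuclear points lie mostly right of 0. Those left of 0 are a tail of complex IV genes, assembly factor genes such as Ndufaf7 and, in all panels but MyS7KO day 3, Ndufb2. All 13 mt- points lie left of 0 in each panel.

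Among the mt- members the falls covered every complex that has one. Cytochrome b (mt-Cytb) read 1800, 1311, 2557, 1527 and 1736 CPM in MyS7KO cells at day 3, against 4410, 4667 and 4280 CPM at baseline. S7fl/fl cells held 1423, 1922, 1793, 1098 and 1924 CPM at day 3, against 3579, 5053 and 5573 CPM at baseline. It fell 2.49-fold and 2.9-fold without overlap (log2 -1.32 ± 0.20 and -1.54 ± 0.20, edgeR adjusted p = 5.3e-06 and 6.99e-07).

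The catalytic complex IV subunit mt-Co1 read 5311, 4365, 6961, 5081 and 5481 CPM at day 3 in MyS7KO cells, against 12339, 12999 and 11659 CPM at baseline. It read 5010, 5799, 5330, 3734 and 5650 CPM at day 3 in S7fl/fl cells, against 9665, 12419 and 13969 CPM at baseline. Its log2 fold changes were -1.18 ± 0.15 and -1.24 ± 0.15 (edgeR adjusted p = 5.17e-07 and 2.99e-07). The complex I genes mt-Nd1, mt-Nd2, mt-Nd4 and mt-Nd5 fell by log2 1.11 to 1.31 in MyS7KO cells (-1.11, -1.31, -1.18 and -1.13) and changed by -1.42, -1.64, -1.41 and -1.13 in S7fl/fl cells.

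The shallowest passing fall at day 3 among the abundant mt- members was that of mt-Nd6 (log2 -0.71 ± 0.17 in MyS7KO and -0.95 ± 0.17 in S7fl/fl cells). It is encoded on the opposite strand of the mitochondrial genome, and in human cells its RNA is known to lack the poly(A) tail by which these libraries were selected. The members that missed the threshold were low-count genes of the trough: mt-Nd3 in both genotypes (log2 -0.98 and -1.35, edgeR adjusted p = 0.168 and 0.0592) and mt-Atp8 in MyS7KO cells (log2 -0.67, edgeR adjusted p = 0.0789). Counts given to the pseudogenes on chromosome 1 also fell, for 6 of 7 of them in each genotype, where 35.2% and 34.1% of all genes fell. Reads of the identical stretches cannot be assigned, so these falls are not separate from those of the mt- members.

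Markers of other cell types moved between the same groups. Summed over 21 cardiomyocyte genes, libraries held 37.8 to 53.9 CPM (MyS7KO) and 33.0 to 52.5 CPM (S7fl/fl) at day 3, against 119 to 155 and 141 to 191 CPM at baseline. The 8 endothelial genes summed to 508 to 879 and 360 to 842 CPM at day 3, against 1264 to 2495 and 1875 to 2640 CPM at baseline, and the 6 mural genes to 104 to 187 and 93.7 to 166 CPM, against 762 to 1284 and 907 to 1240 CPM. No gene of these lists was at 0 in every library. In bulk RNA, fewer cells of a type and less RNA per cell cannot be told apart. Genes of cycling cells summed to 439 to 586 and 228 to 567.7 CPM at day 3, against 183 to 240 and 183 to 203 CPM at baseline, and their part in the result was not tested.

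With the cardiomyocyte sum as a covariate, which itself separates baseline from day 3 without overlap, 74 and 32 nuclear members rose at day 3 in MyS7KO and S7fl/fl cells and 2 and 1 mt- members fell. The medians were then 1.01 and 0.70 for nuclear and -0.41 and -0.52 for mt- members. With the sum of endothelial and mural markers instead, an alternative added after the data were seen, 76 and 57 nuclear members rose and 9 and 7 mt- members fell (medians 1.00 and 0.72, -0.73 and -0.93). The median fall of the mt- members was smaller under both covariates, and the median rise of the nuclear members moved by under 0.1 on the log2 scale. The endothelial and mural sums also separated baseline from day 3 without overlap, so covariate and time cannot be fully told apart in these fits.

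A small group of complex IV isoforms fell while their common partners rose. Cox4i2, the tissue-restricted partner of Cox4i1, read 1.64, 2.84, 2.33, 2.12 and 1.08 CPM at day 3 in MyS7KO cells, against 8.36, 11.2 and 4.51 CPM at baseline. S7fl/fl libraries read 2.57, 3.11, 1.14, 2.73 and 4.06 CPM at day 3, against 5.87, 14.1 and 9.49 CPM at baseline. No day 3 library reached a baseline library, and the log2 fold change was -1.99 ± 0.38 in MyS7KO and -1.84 ± 0.38 in S7fl/fl cells (edgeR adjusted p = 0.00011 and 0.000216). Cox4i1 itself rose 2.33-fold and 1.68-fold (log2 1.22 ± 0.17 and 0.75 ± 0.17).

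Ndufa4l2, a paralog of Ndufa4 known as a target of the hypoxia factor HIF-1, read 5.81, 6.92, 4.11, 3.18 and 3.06 CPM at day 3 in MyS7KO cells, against 10.99, 12.26 and 5.80 CPM at baseline. In S7fl/fl cells it read 5.88, 4.79, 2.42, 4.19 and 5.31 CPM at day 3, against 8.88, 16.7 and 13.0 CPM at baseline. The log2 fold changes of -1.06 ± 0.35 and -1.50 ± 0.35 passed (edgeR adjusted p = 0.0125 and 0.000857), but the MyS7KO groups overlapped, and the call ended without MyS7KO baseline replicate 1 (-0.93, edgeR adjusted p = 0.055) or replicate 2 (-0.83, 0.0814). The common Ndufa4 rose by 0.77 and 0.38.

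Both Cox4i2 and Ndufa4l2 are known to be expressed in pericytes, and the mural marker Rgs5 read 53.8 to 98.3 CPM in MyS7KO cells at day 3, against 338 to 513 CPM at baseline. With cardiomyocyte or with endothelial and mural markers as a covariate, the log2 value of Ndufa4l2 at day 3 in MyS7KO cells turned to 0.46 and 0.11, and with cardiomyocyte markers it turned to 0.42 in S7fl/fl cells. Cox4i2 turned to 0.16 in S7fl/fl cells with cardiomyocyte markers. None of these values passed, nor did Cox4i2 at day 3 or day 7 in either genotype with either covariate. The cardiomyocyte, endothelial and mural sums themselves separated baseline from day 3 without overlap. The part of pericytes in the falls of Cox4i2 and Ndufa4l2 was not tested.

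The heart-muscle isoforms Cox6a2 and Cox8b had few counts in every group. Cox6a2 averaged 1.27 to 2.13 CPM and Cox8b 0.173 to 0.977 CPM over the 6 groups. Cox8b fell in S7fl/fl cells at day 3 (log2 -2.48 ± 0.61, edgeR adjusted p = 0.00113), and its MyS7KO value of -0.68 did not pass. With cardiomyocyte markers as a covariate the S7fl/fl value turned to 0.73, and with endothelial and mural markers it was -1.05 (edgeR adjusted p = 0.404). Cox7a1 rose in MyS7KO cells at day 3 (log2 0.65, a call that ended without MyS7KO baseline replicate 2, without the libraries of mixed sex, or with the cardiomyocyte or the endothelial and mural markers as a covariate, at 0.50 and 0.37), and Cox6b2, known from testis, fell in S7fl/fl cells (log2 -0.86 ± 0.28, edgeR adjusted p = 0.00973). It lost the call when baseline replicate 2 of S7fl/fl was left out (-0.57, edgeR adjusted p = 0.111), and with cardiomyocyte (-0.18, 0.873) or endothelial and mural markers (-0.78, 0.176) as a covariate.

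Cox7a2l, the supercomplex factor, was higher at day 7 than at baseline and day 3 in both genotypes. C57BL/6 mice are known to carry a shortened form of this gene. In MyS7KO cells it read 140, 125 and 169 CPM at baseline, 112, 149, 145, 117 and 144 CPM at day 3, and 181, 229, 221 and 235 CPM at day 7. In S7fl/fl cells it read 131, 175 and 160 CPM at baseline, 131, 126, 117, 113 and 122 CPM at day 3, and 233, 218 and 251 CPM at day 7.

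Its baseline and day 3 libraries overlapped, while every day 7 library stood above all others. At day 3 it changed by -0.11 ± 0.12 in MyS7KO cells, which did not pass, and fell by 0.35 ± 0.12 in S7fl/fl cells (-0.35, edgeR adjusted p = 0.0125). Leaving out baseline replicate 2 or 3 of S7fl/fl ended that call (-0.26 and -0.32, edgeR adjusted p = 0.0944 and 0.055), as did cardiomyocyte or endothelial and mural markers as a covariate (-0.41 and -0.41, edgeR adjusted p = 0.281 and 0.0817). At day 7 Cox7a2l rose against baseline by 0.58 ± 0.13 and 0.59 ± 0.13, and against day 3 by 0.70 ± 0.11 and 0.94 ± 0.12 in MyS7KO and S7fl/fl cells (edgeR adjusted p = 2.39e-05 and 5.09e-06 against day 3). Against baseline the S7fl/fl value did not pass with cardiomyocyte (0.55, edgeR adjusted p = 0.0693) or with endothelial and mural markers as a covariate (0.52, edgeR adjusted p = 0.118).

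**Figure D4:**
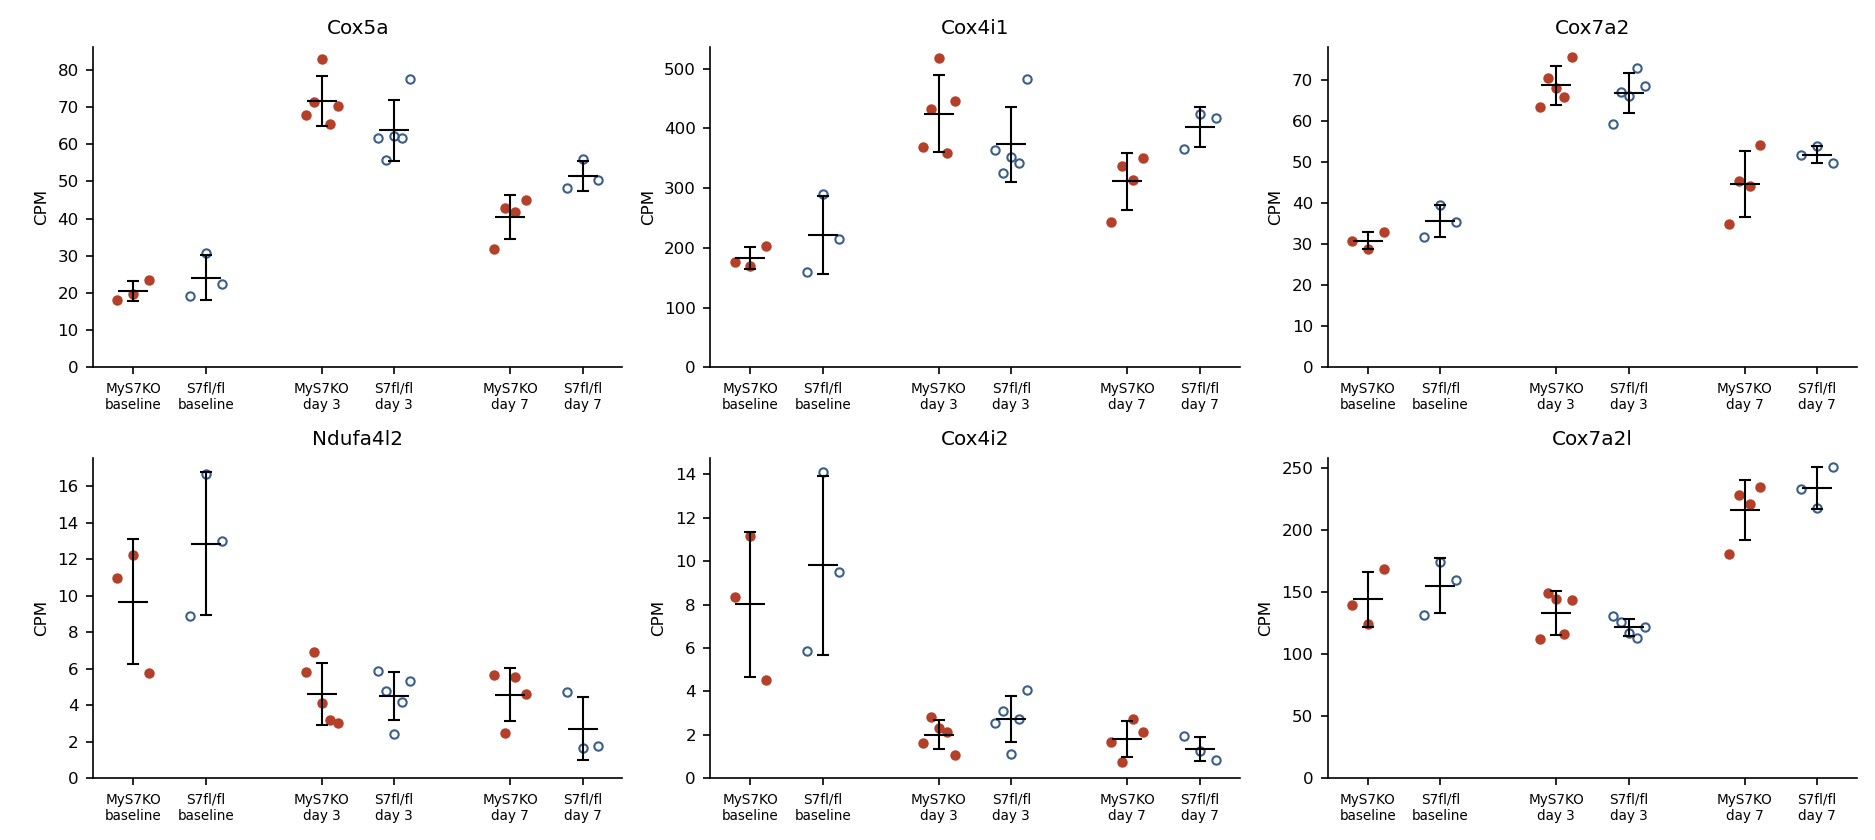
CPM per library of complex IV genes that rose at day 3 (Cox5a, Cox4i1, Cox7a2), of those that fell (Ndufa4l2, Cox4i2) and of Cox7a2l, by time with MyS7KO (filled red) left of S7fl/fl (open blue); horizontal bars are means and error bars SD. Cox5a stands at 55.6 to 82.9 CPM in all day 3 libraries, and Cox7a2l at 181 to 251 CPM in all day 7 libraries.

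Nuclear genes of the respiratory chain are known targets of the activator NRF1, so the promoters of the members were read for its site. RefSeq promoters (250 bases before to 50 after the gene's start, GRCm38.p6) were matched for 74 nuclear members. Its motif, GCGC followed by any 2 bases and GCGC again, searched on both strands like the others, was found in 20 of these 74 (27.0%), against 12.4% of 11458 promoters of tested genes and 6.43% of all 27025 promoters. The ETS motif CCGGAAG was in 22.97% of member promoters, against 16.8% and 9.12%, the YY1 motif AANATGGC in 21.6%, against 8.27% and 6.23%, and TATAAA in 9.46%, against 7.74% and 14.2%. Matches of 1 motif may overlap those of another, and a match is a description of letters, not a bound site. Printed are Sdha, which had the NRF1 motif 3 times, Atp5g2, among the members with the largest rise at day 7, with 1, and Cox7a2l, the supercomplex factor, with none; capitals mark the NRF1 motif. Cox5a had no match to any of the 4 motifs in this window.
Sdha (chr13:74350191-74350490, minus strand): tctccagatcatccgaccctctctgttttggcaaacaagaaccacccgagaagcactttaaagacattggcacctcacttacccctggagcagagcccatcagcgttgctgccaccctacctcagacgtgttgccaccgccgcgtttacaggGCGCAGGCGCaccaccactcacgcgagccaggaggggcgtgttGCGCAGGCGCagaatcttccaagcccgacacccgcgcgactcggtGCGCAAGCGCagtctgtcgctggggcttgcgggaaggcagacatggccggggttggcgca
Atp5g2 (chr15:102670998-102671297, minus strand): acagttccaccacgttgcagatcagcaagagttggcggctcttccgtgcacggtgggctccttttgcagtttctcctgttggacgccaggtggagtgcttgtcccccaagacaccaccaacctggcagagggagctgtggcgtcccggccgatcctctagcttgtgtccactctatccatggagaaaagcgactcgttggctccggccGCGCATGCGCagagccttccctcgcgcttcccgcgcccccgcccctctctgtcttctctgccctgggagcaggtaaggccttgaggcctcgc
Cox7a2l (chr17:83514284-83514583, minus strand): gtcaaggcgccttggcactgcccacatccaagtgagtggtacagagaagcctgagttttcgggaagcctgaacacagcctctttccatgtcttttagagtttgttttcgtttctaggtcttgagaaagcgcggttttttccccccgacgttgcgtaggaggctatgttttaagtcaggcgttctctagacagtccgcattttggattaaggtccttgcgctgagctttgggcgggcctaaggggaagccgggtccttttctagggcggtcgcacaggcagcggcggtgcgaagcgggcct

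At day 7 the nuclear sums lay between those of baseline and day 3 in both genotypes, and the mt- sums were below those of baseline. Against baseline, 52 of 91 nuclear members rose and 3 fell in MyS7KO cells, where 22.2% of all genes rose and 21.8% fell, and 59 rose and 3 fell in S7fl/fl cells, where 24.8% rose and 25.4% fell (50.2% in either direction). Median log2 fold changes were 0.46 and 0.53 for nuclear and -1.11 and -1.11 for mt- members, against -0.01 and -0.02 for all genes. None of the mt- members rose, and 10 fell in MyS7KO and 12 in S7fl/fl cells. Cox5a, Atp5g2, Ndufa1 (an accessory subunit of complex I) and Atp5mpl (a small proteolipid of ATP synthase) had the largest rises, Cox5a by 0.98 ± 0.15 in MyS7KO and 1.09 ± 0.16 in S7fl/fl cells.

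Atp5b and Sdha were not called at day 7. Atp5b, the catalytic beta subunit of ATP synthase, changed against baseline by 0.12 ± 0.10 in MyS7KO and 0.18 ± 0.10 in S7fl/fl cells, and Sdha by 0.14 ± 0.09 and 0.18 ± 0.09, with no call (edgeR adjusted p = 0.327, 0.157, 0.19 and 0.108). Cox4i2 (log2 -2.12 and -2.84) and Ndufa4l2 (-1.07 and -2.23) were lower than at baseline. The MyS7KO call of Ndufa4l2 ended without baseline replicate 1 or 2 or day 7 replicate 3. With cardiomyocyte or with endothelial and mural markers as a covariate, Ndufa4l2 passed in neither genotype (-0.13 and 0.039 in MyS7KO cells, edgeR adjusted p = 0.856 and 0.959, and -0.95 and -0.57 in S7fl/fl cells, edgeR adjusted p = 0.217 and 0.513). The third nuclear member to fall was the assembly factor Ndufaf7 in MyS7KO cells (log2 -0.35 ± 0.13, edgeR adjusted p = 0.036) and Cox8b in S7fl/fl cells (-2.20 ± 0.69, 0.0109). The Ndufaf7 call ended without any of 6 single libraries or with sex (-0.25, edgeR adjusted p = 0.164), cardiomyocyte markers (-0.33, 0.205) or endothelial and mural markers (-0.24, 0.376) as a covariate. Cox8b lost its call with cardiomyocyte markers (-0.12, edgeR adjusted p = 0.94) or endothelial and mural markers (-0.51, 0.808) as a covariate, and when day 7 replicate 4 of S7fl/fl was left out (-1.76, 0.0604).

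The day 7 counts fell with the marker covariates. In both genotypes the cardiomyocyte and mural sums separated baseline from day 7 without overlap, and in S7fl/fl cells the endothelial sum did too. The cardiomyocyte sum was 48.0 to 110.2 and 44.3 to 89.5 CPM at day 7 in MyS7KO and S7fl/fl cells. Covariate and time thus cannot be fully told apart in these fits. With cardiomyocyte markers as a covariate, 31 and 17 nuclear members rose at day 7 in MyS7KO and S7fl/fl cells, and with endothelial and mural markers 29 and 10. The mt- falls numbered 8 and 0 with either covariate. Median changes of the nuclear members were 0.48 and 0.50 with cardiomyocyte markers and 0.45 and 0.49 with endothelial and mural markers. Those of the mt- members were -0.76 and -0.51 with cardiomyocyte markers and -0.76 and -0.51 with endothelial and mural markers, against -1.11 and -1.11 without a covariate. Fibroblast markers summed to 1792 to 5132 CPM in MyS7KO and 1295 to 3424 CPM in S7fl/fl cells at day 7, against 543 to 1123 and 776 to 1146 CPM at baseline. The single markers were mixed. Of 9, 4 were called higher and 2 lower in MyS7KO cells, and 4 higher and 4 lower in S7fl/fl cells (median log2 0.08 and -1.17). Their part was not tested.

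From day 3 to day 7 many nuclear members fell in MyS7KO cells and fewer passed in S7fl/fl cells, and few mt- members changed. Day 7 against day 3 in MyS7KO cells gave 1 nuclear member higher and 75 lower, where 20.5% of all genes rose and 19.1% fell. S7fl/fl cells gave 2 higher and 20 lower, where 11.5% rose and 10.1% fell. Nuclear medians were -0.58 and -0.22, mt- medians 0.02 and 0.33, and medians over all genes 0.08 and 0.01. These groups were unequal in size (4 against 5 and 3 against 5 libraries), and the difference between genotypes itself was called for no member. Leaving out day 7 replicate 2 or 4 of S7fl/fl reduced its 22 calls to 11 and 14.

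In MyS7KO cells the largest falls were those of Atp5g1 (log2 -1.07 ± 0.10), Ndufb7 (-1.03 ± 0.22) and Ndufa5 (-1.005 ± 0.20), accessory subunits of complex I in the last 2 cases. In S7fl/fl cells they were Atp5g1 (-0.59 ± 0.11), Atp5b (-0.58 ± 0.09) and the complex I subunit Ndufa11 (-0.51 ± 0.14), of which Ndufa11 ended without S7fl/fl day 7 replicate 4 (-0.44, edgeR adjusted p = 0.0688). The members that rose were Cox7a2l in both genotypes and Ndufa6, an accessory subunit of complex I, in S7fl/fl cells (log2 0.44 ± 0.15, edgeR adjusted p = 0.0455). The Ndufa6 call ended with DESeq2 (adjusted p = 0.052), with RLE scaling (edgeR adjusted p = 0.0549) and without any of 5 single libraries.

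Among S7fl/fl libraries mt-Co1, mt-Co2 and mt-Atp6 were higher at day 7 than at day 3, by 0.46 ± 0.15, 0.55 ± 0.18 and 0.61 ± 0.19 on the log2 scale (edgeR adjusted p = 0.0333, 0.0308 and 0.026). None remained without S7fl/fl day 3 replicate 4, a library of mixed sex, nor without S7fl/fl day 7 replicate 2 or 4. In MyS7KO cells no mt- member passed, with 1 of 13 at an unadjusted p under 0.05 and 0 called by DESeq2. Without MyS7KO day 3 replicate 3, mt-Co1 passed there (0.39, edgeR adjusted p = 0.0323).

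Genotype comparisons called no member at any time. In MyS7KO against S7fl/fl cells, 0.00604% of all genes were called higher and 0.00604% lower at baseline (0.0121% in either direction). The shares were 0.00604% and 0.00604% (0.0121%) at day 3, and 0.00604% higher and 0.0121% lower (0.0181%) at day 7. Unadjusted p under 0.05 was reached by 8 of 91 nuclear members at baseline, 2 at day 3 and 38 at day 7, and by 0 of 13 mt- members each time. Over all 16545 genes this was so for 375, 594 and 2173. DESeq2 called 0 members at each time. The direction nevertheless leaned: 86 of 91 nuclear members were lower in MyS7KO cells at baseline (median log2 -0.23), 80 were higher at day 3 (0.11), and 86 were lower at day 7 (-0.28). Of all 16545 genes, 9179 were lower at baseline, 8192 higher at day 3 and 8435 lower at day 7. The members share the same libraries, so these counts are not independent observations of genotype. Over all genes the medians were -0.029, -0.0021 and -0.0073.

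The nuclear sums behind these medians overlapped at every time. They were 3745 to 4447 CPM in MyS7KO cells against 3913 to 5359 CPM in S7fl/fl cells at baseline, 7617 to 8757 against 7090 to 8717 CPM at day 3, and 4448 to 6314 against 6228 to 6878 CPM at day 7. For the mt- members the medians were -0.10, 0.20 and -0.22 and the sums overlapped too. The log2 ratio of the sums differed between genotypes by 0.18, 0.03 and 0.14.

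At day 7 the lowest p-values belonged to Atp5g1 (log2 -0.36 ± 0.11, edgeR adjusted p = 0.273), Atp5h of the ATP synthase stalk (-0.35 ± 0.11, 0.274) and Ndufa9, Ndufa4 and Ndufa12 (-0.32, -0.40 and -0.42, each 0.286). Atp5h read 83.0, 106, 103 and 112 CPM in MyS7KO libraries, against 125, 129 and 132 CPM in S7fl/fl libraries, without overlap. At baseline the lowest p-values were those of Ndufs3 (-0.37), Ndufa11 (-0.40), Ndufaf2 (-0.38), Ndufa12 (-0.33) and Ndufb9 (-0.40), all with an edgeR adjusted p of 0.999. At day 3 they were Cox8b (1.37), Ndufa12 (0.26), mt-Co2 (0.29), Ndufs5 (0.20) and Uqcr10 (0.19), all at 0.982.

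**Figure D5:**
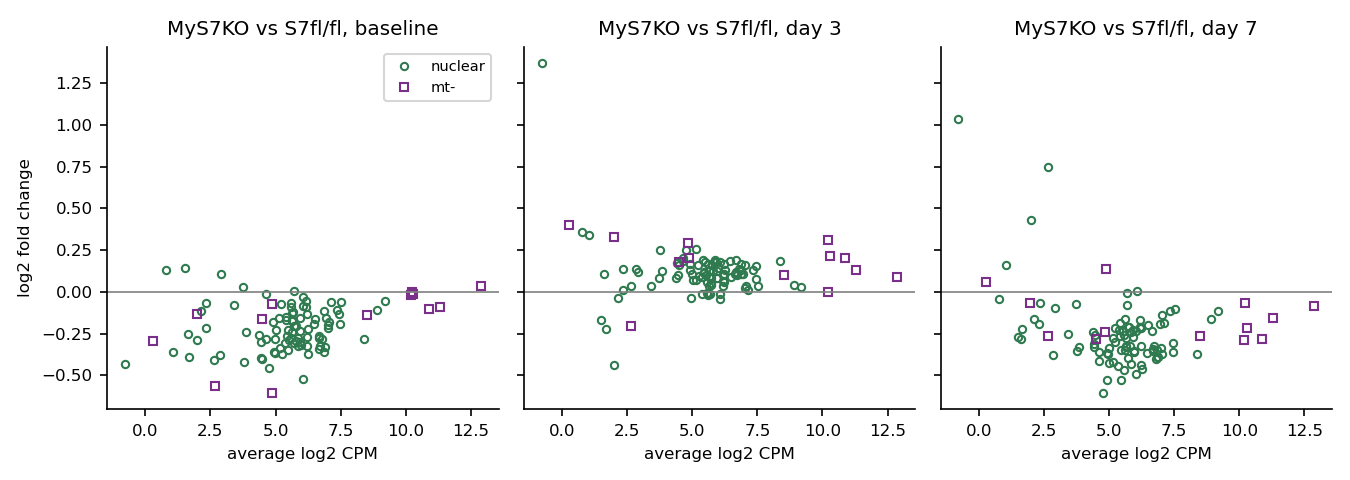
Log2 fold change of MyS7KO against S7fl/fl cells at baseline, day 3 and day 7 plotted against average log2 CPM for each tested member, nuclear (green circles) and mt- (purple squares). No point passed the edgeR test; most nuclear points lie below 0 at baseline and day 7 and above 0 at day 3.

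Whether the genotype effect changed with time was tested as an interaction, and 0% of all genes and no member were called in any of the 3 interactions. For day 7 minus day 3, 86 of 91 nuclear members were negative with a median of -0.40, and 44 of them, with 1 of 13 mt- members, had an unadjusted p under 0.05. Over all genes 1726 of 16545 had an unadjusted p under 0.05, 7968 were negative and the median was 0.016. Ndufa12, an accessory subunit of complex I, had the lowest p (-0.68 ± 0.18, edgeR adjusted p = 0.416). It read 21.5, 30.4, 29.4 and 27.4 CPM at day 7 and 52.1, 49.8, 56.8, 45.5 and 55.4 CPM at day 3 in MyS7KO cells, and 30.7, 39.4 and 38.8 CPM at day 7 and 37.8, 39.6, 41.5, 46.8 and 51.4 CPM at day 3 in S7fl/fl cells. The same member had the lowest p for day 3 minus baseline (0.59 ± 0.19, edgeR adjusted p = 0.878), where 17 of 91 nuclear members and 741 of all 16545 genes reached an unadjusted p under 0.05. For day 7 minus baseline 0 nuclear members and 862 of all genes did, and Ndufa4l2 came first (1.15 ± 0.57, edgeR adjusted p = 0.877). DESeq2 called 0 members in the interactions.

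Genes that build and feed the chain, in lists chosen by function, were counted in the same way. For all day 3 counts of this and the lists below, 30.7% of all genes tested rose and 35.2% fell in MyS7KO cells. In S7fl/fl cells 29.9% rose and 34.1% fell. Of 77 tested mitochondrial ribosomal proteins, which translate the mt- mRNAs, 70 rose and 1 fell at day 3 in MyS7KO cells and 66 rose and 2 fell in S7fl/fl cells, with median log2 fold changes of 1.01 and 0.80. From day 3 to day 7 none rose and 68 fell in MyS7KO cells, and 1 rose and 22 fell in S7fl/fl cells. Between these times 20.5% of all genes rose and 19.1% fell in MyS7KO cells, and 11.5% and 10.1% in S7fl/fl cells. Mrps28 averaged 28.9 ± 3.43 CPM in MyS7KO cells at day 3 and 6.66 ± 0.798 CPM at baseline (SD, n = 5 and 3; log2 2.12), and its log2 change in S7fl/fl cells was 1.57. Mrpl52 rose by 1.92 and 1.65.

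Among 22 genes of protein import, channels and cristae structure, 16 rose and 1 fell at day 3 in MyS7KO cells, and 17 rose and 2 fell in S7fl/fl cells. Timm23, the channel of the inner membrane translocase, rose by 1.45 and 1.37, and Vdac2, a channel of the outer membrane, by 1.36 and 1.19 (log2). The phosphate carrier Slc25a3 and the ADP/ATP carrier Slc25a5 rose by 0.79 and 0.82 in MyS7KO and by 0.72 and 0.80 in S7fl/fl cells, within a list of 7 carriers and uncoupling proteins of which 4 rose and 1 fell in each genotype. Of 37 assembly factors outside the members, 21 rose and 2 fell in MyS7KO and 19 rose and 1 fell in S7fl/fl cells, among them Coa5 for complex IV (log2 1.04 and 1.09) and Uqcc2 for complex III (1.57 and 1.10).

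Genes of mitochondrial gene expression and regulators of mitochondrial biogenesis were listed too. Among 35 genes of mitochondrial gene expression, 15 rose and 5 fell at day 3 in MyS7KO cells and 15 rose and 6 fell in S7fl/fl cells. Their median log2 fold changes were 0.17 and 0.335. Over all genes 30.7% rose and 35.2% fell in MyS7KO cells, and 29.9% rose and 34.1% fell in S7fl/fl cells. Tufm, the mitochondrial elongation factor, rose by 1.24 and 1.23, and Tbrg4, a factor for mitochondrial RNA, by 0.83 and 0.86. Of 14 biogenesis regulators, 2 rose and 6 fell in MyS7KO and 3 rose and 4 fell in S7fl/fl cells (medians -0.08 and 0.10). The deacetylase gene Sirt1 averaged 50.01 ± 1.30 CPM at day 3 and 122 ± 11.1 CPM at baseline in MyS7KO cells (SD, n = 5 and 3; log2 -1.28) and changed by -1.05 in S7fl/fl cells. Nfe2l2, the antioxidant regulator NRF2, rose from day 3 to day 7 by 0.60 and 0.63.

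Among 20 genes of electron carriers and coenzyme Q, 12 rose and 1 fell at day 3 in MyS7KO cells, and 10 rose and 1 fell in S7fl/fl cells. Cycs, somatic cytochrome c, which carries electrons between complexes III and IV, averaged 95.5 ± 7.10 CPM at day 3 and 37.6 ± 0.741 CPM at baseline in MyS7KO cells (SD, n = 5 and 3). It rose by 1.34 and 1.13 at day 3, and from day 3 to day 7 it fell by 1.14 (-1.14) in MyS7KO and 0.72 (-0.72) in S7fl/fl cells. Coq8a, a kinase-like protein of coenzyme Q synthesis, did the reverse, with log2 fold changes of -0.55 and -0.79 at day 3 and of 1.59 and 1.35 from day 3 to day 7, all of which passed.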

How the data were processed

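Counts per gene were deposited by the authors as whole numbers for 23 libraries and used as they stand. The FPKM values deposited by the authors rest on the same counts, on gene length and on a size per library. That size was above the count total in every baseline library (24.24 against 21.01 M in S7fl/fl replicate 1). It was below the total in most day 3 libraries (16 against 17.3 M in S7fl/fl replicate 4). Changes in FPKM over time thus differ in scale from those per count total. HTSeq 0.6.1, TopHat2 2.0.9 and Cufflinks 2.1.1 are listed without roles, beside mm10 and GRCm38.p6, per the submitters' processing notes, and strandedness is not given in the sources used here, so reads of overlapping antisense genes cannot be told apart. Counts of small nuclear members with processed copies are uncertain in the same way as those of the mt- members described above.

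Of 54532 genes, 16545 passed filterByExpr. They were fitted over all 6 groups with edgeR 4.0.16 (limma 3.58.1, R 4.3.3), using TMM scaling and the robust quasi-likelihood test, with Benjamini-Hochberg adjustment over all genes. CPM are TMM-scaled. Expression levels were compared between genes in FPKM only. Sequences were aligned and scanned with Python 3 and Biopython. The fitting procedure was tested on simulated data. No replicates were averaged as duplicates, since all pairs differed by more than counting noise.

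Members and lists were chosen with earlier results of these data known. Named were all mt- members, tissue isoforms and their partners, the Sdh genes, the 3 highest and 3 lowest called nuclear members per time comparison (mean log2 CPM 1 or more), the 5 lowest p-values per genotype comparison and interaction, the 5 highest FPKM and, of each list, the 2 genes with the lowest p. Members beyond these, such as those at 0 counts, were named after their values were seen. Left out were 13 genes with a matching name that are not protein-coding. Alternatives were DESeq2 1.42.0, RLE scaling, scaling without mt- genes, no filter, a replicate block, sex and marker covariates, only the groups compared, removal of mixed-sex libraries and of each library. Intervals and standard errors cover these libraries only.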

Additional observations from a re-analysis of the deposited data

Results flagged for a closer look

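In groups of 4 or 5 libraries, the gap of the highest or lowest library to its nearest neighbour was compared with Dixon's limit for 57 quantities, the sums and the named members. It was passed 13 times in 171 groups, where chance passes about 1 in 20.

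Most of these were S7fl/fl day 3 replicate 5, which stood high for nuclear members. Their sum was 8717 CPM there, against 7090 to 7535 CPM in the other 4 libraries. Complex IV genes with the same pattern were Cox4i1 (483.3 CPM, others 325.8 to 363.7), Cox6a1 (264.1 CPM, others 195.2 to 209.0) and Cox6b1 (190.4 CPM, others 126.4 to 141.0). ATP synthase genes were Atp5g3 (186.6 CPM, others 135.5 to 145.2) and Atp5g1 (94.8 CPM, others 79.5 to 82.8). Complex I genes were Ndufb7 (108.4 CPM, others 61.3 to 71.8), Ndufa9 (69.6 CPM, others 57.8 to 60.9) and Ndufa5 (44.63 CPM, others 25.4 to 29.4). Without this library 77 nuclear members were called at day 3 against baseline in S7fl/fl cells, against 79 with it.

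Single members stood apart in MyS7KO libraries. mt-Nd4 was high in day 3 replicate 3, a library of mixed sex (1445 CPM, others 764 to 929), and Sdhc low in day 3 replicate 1 (77.51 CPM, others 95.6 to 103). mt-Nd5 was low in day 7 replicate 5 (685.9 CPM, others 991 to 1025). mt-Co3 was high in day 7 replicate 4 (45.14 CPM, others 18.5 to 20.6), and without that library its change against baseline, -0.70 with all libraries, was -1.08 and passed (edgeR adjusted p = 0.00745).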

How the results depend on the processing

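Directions of the nuclear and mt- medians at day 3 and day 7 against baseline held under every alternative run, and those of the log2 ratio without each library and without mt- genes with copies. With cardiomyocyte markers as a covariate, nuclear calls were 32 at day 3 in S7fl/fl, 31 at day 7 in MyS7KO and 17 at day 7 in S7fl/fl cells, and mt- calls 2 and 1 at day 3, 0 at day 7 in S7fl/fl cells, and 3 and 0 for day 7 against day 3 in MyS7KO and S7fl/fl cells. With endothelial and mural markers, added after the data were seen, nuclear calls at day 7 were 29 and 10, and mt- calls in S7fl/fl cells 7 at day 3 and 0 at day 7. Members that turned against their main direction were Ndufa4l2 (0.46 at day 3 in MyS7KO and 0.42 in S7fl/fl cells), mt-Co3 (0.18, MyS7KO day 3), Cox4i2 (0.16, S7fl/fl day 3) and Cox8b (0.73, S7fl/fl day 3) with cardiomyocyte markers, and Ndufa4l2 (0.11 and 0.039 in MyS7KO cells at day 3 and day 7) with endothelial and mural markers. The cause was not tested.

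For day 7 against day 3, mt- calls were 1 in MyS7KO and 1 in S7fl/fl cells with sex as a covariate, 1 in MyS7KO cells with only the groups compared, and 0 in S7fl/fl cells without libraries of mixed sex. Leaving out each library gave 79 to 82 and 71 to 80 nuclear calls at day 3 in MyS7KO and S7fl/fl cells, 40 to 67 and 43 to 70 at day 7, and 66 to 77 and 11 to 21 for day 7 against day 3. The mt- calls ranged over 11 to 12, 12 to 13, 10 to 11, 10 to 12, 0 to 1 and 0 to 3 in the same order. Genotype and interaction counts stayed 0 under all alternatives.

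Correlations of the deviations of same-numbered libraries ran from -0.30 to 0.23. Differently numbered pairs were not compared, so these values cannot settle whether replicate numbers pair the samples. The main fit did not pair them. A replicate block gave 81 and 77 nuclear calls at day 3 and 48 and 64 at day 7, against 82, 79, 55 and 62. Scaling moved no median of all genes by over 0.1. Precision is limited for the mt- genes with low counts. These went down to 17 counts (mt-Nd3) among those with an aligned copy on chromosome 1, and to 8 for mt-Atp8, which overlaps mt-Atp6.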
